A study of Homo sapiens with 8 samples.

Results

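The genes described here are 10 factors of mRNA decapping and 5-prime decay: DCP2, DCP1A, DCP1B, EDC3, EDC4, DDX6, LSM14A, LSM1, PATL1 and XRN1. They are 10 of the 13703 genes listed in at least 1 of the deposited expression tables. They were chosen as a functional family because DCP1A was already known to be higher in sgNAT10 libraries over both cell lines. Their sgNAT10 against NC values are therefore given as a description, without a p-value. The study sequenced polyadenylated RNA from human osteosarcoma lines on a BGISeq-500 instrument. The 4 groups were 143B cells labelled sgNAT10, 143B cells labelled NC, HOS cells labelled sgNAT10 and HOS cells labelled NC, with 2 libraries each. The design text calls the sgNAT10 cells NAT10 knockouts and the NC cells controls. HOS is an established osteosarcoma line, and 143B was derived from it. NAT10 is the enzyme that acetylates cytidine in RNA. The labels give no guide sequence and no clone. Nor do they state whether the libraries of a group are separate cultures, so the p-values measure library-to-library spread that may be purely technical.

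Most cytoplasmic mRNAs are degraded after their poly(A) tail has been shortened. The LSM1-7 ring with PATL1 then binds the shortened 3-prime end and recruits the decapping machinery, the catalytic subunit DCP2 removes the 5-prime cap, and the exonuclease XRN1 digests the exposed body of the mRNA. DCP1A and DCP1B are paralogous activating subunits of DCP2. EDC3 and EDC4 are enhancers and scaffolds of the complex, and the helicase DDX6 and its partner LSM14A link translational repression to decapping. Many of these proteins gather in cytoplasmic processing bodies.

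The sequences around the start of transcription of DCP1A and DCP1B are shown because these paralogs are the factors called in the mean over both lines, in opposite directions. Each runs from 100 bases before the RefSeq start of transcription to the annotated start codon, which is in capitals, and is read 5-prime to 3-prime on the minus strand of GRCh38.p14. The DCP1A stretch lies at chr3:53347515-53347643 and the DCP1B stretch at chr12:2004429-2004557.
DCP1A: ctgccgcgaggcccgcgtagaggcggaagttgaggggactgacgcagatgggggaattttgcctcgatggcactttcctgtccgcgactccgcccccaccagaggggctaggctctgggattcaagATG
DCP1B: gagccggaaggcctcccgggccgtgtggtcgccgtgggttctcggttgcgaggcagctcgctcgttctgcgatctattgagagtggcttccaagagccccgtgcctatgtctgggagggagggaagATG
The start codon followed the RefSeq start of transcription by 26 bases in both genes. The GENCODE genes begin further upstream, at 53347610 for DCP1A and 2004535 for DCP1B. Part of each stretch before the RefSeq start thus lies inside the GENCODE gene. RefSeq promoter entries matched 8 of the 10 factors. In windows of 250 bases before to 50 after the start, on both strands, the GC box GGGCGG stood in 7 of these 8, DCP1A and DCP1B included, and in 45.0% of all 35116 promoters. The ETS core CCGGAAG stood in DCP1B, EDC3 and EDC4 and in 10.3% of all promoters, and CCAAT stood in DCP2 and in 34.6%. The cAMP response element TGACGTCA, found in 1.8% of all promoters, the E-box CACGTG, found in 7.3%, and the ATF4 element TGATGNAA, found in 3.6%, were in none of the 8 windows.

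Each line had its own table of FPKM, a level per transcript length that is scaled to the sequenced fragments, with 12700 genes for 143B and 12810 for HOS. NAT10 had 9.05 and 7.19 FPKM in the 143B sgNAT10 libraries, against 16.1 and 19.9 FPKM in 143B NC, and fell by 1.06 on the log2 scale (SE 0.31). That call was lost under median-ratio scaling, at -0.80, without NC replicate 2, at -0.91, and without sgNAT10 replicate 1 (-1.21) or 2 (-0.91), and the change was -0.56, still called, after correction for transcript length and GC content. In HOS it went against the label, with 21.1 and 19.1 FPKM in the libraries labelled sgNAT10, against 14.9 and 16.2 FPKM in NC. The log2 change in HOS was 0.35 (SE 0.10), called, and was -0.05, not called, after that correction. The HOS call was also lost without the library labelled sgNAT10 replicate 1, at 0.29, and held under 11 of 17 alternatives. Transcript levels do not show whether NAT10 protein was lost. The listed FPKM summed to 775277 to 798137 in 143B sgNAT10, against 594407 to 653693 in 143B NC, and to 484793 to 494186 in HOS sgNAT10, against 559748 to 574807 in HOS NC. The osteoblast lineage markers, of which 6 of 10 were listed in 143B and 7 of 10 in HOS, summed to 21.4 to 27.8 FPKM in 143B sgNAT10, against 61.3 to 86.8 in 143B NC, and to 812 to 884 in HOS sgNAT10, against 672 to 762 in HOS NC. SP7, IBSP and BGLAP, markers of committed and mature osteoblasts, were not listed in either line. The mesenchymal markers summed to 488 to 775 FPKM in 143B sgNAT10, against 1348 to 1754 in 143B NC, and to 1187 to 1205 in HOS sgNAT10, against 942 to 1053 in HOS NC. Of 5 blood markers CD68 alone was listed, at 45.6 to 50.2 FPKM in 143B sgNAT10, against 103 to 126 in 143B NC, and at 15.9 to 17.2 in HOS sgNAT10, against 15.3 to 15.7 in HOS NC. The epithelial markers summed to 21.4 FPKM or less and the endothelial ones to 2.02 FPKM or less in every library. The part of these shifts in the changes below was not tested.

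DCP1A, an activating subunit of the decapping enzyme, rose in sgNAT10 libraries of both lines. In 143B it had 32.9 and 34.2 FPKM in the sgNAT10 libraries, against 3.10 and 4.08 FPKM in the NC libraries. In HOS it had 8.95 and 9.08 FPKM in sgNAT10, against 6.18 and 5.88 FPKM in NC. The groups did not overlap in either line, and the rise was far larger in 143B, where mean FPKM was 9.34 times the NC mean, than in HOS, where it was 1.5 times. In bulk RNA, fewer cells with a transcript and less transcript per cell cannot be told apart. On the log2(FPKM + 1) scale the change was 2.92 (SE 0.30) in 143B and 0.51 (SE 0.11) in HOS. By size it ranked number 18 from the top of 11419 genes tested in 143B, and number 3210 of 11957 in HOS. The median gene moved by -0.25 in 143B and by 0.19 in HOS, so that relative to it DCP1A changed by 3.17 in 143B and by 0.32 in HOS. A change is called here where limma gave a Benjamini-Hochberg adjusted p under 0.05 over all genes tested. For the decapping factors such a call only describes the values from which they were picked. Over the alternatives tried the DCP1A change ranged over 2.17 to 3.21 in 143B and over 0.22 to 0.70 in HOS, where it was not called under quantile normalization, at 0.22, or when both lines shared 1 estimate of the spread.

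**Figure D1:**
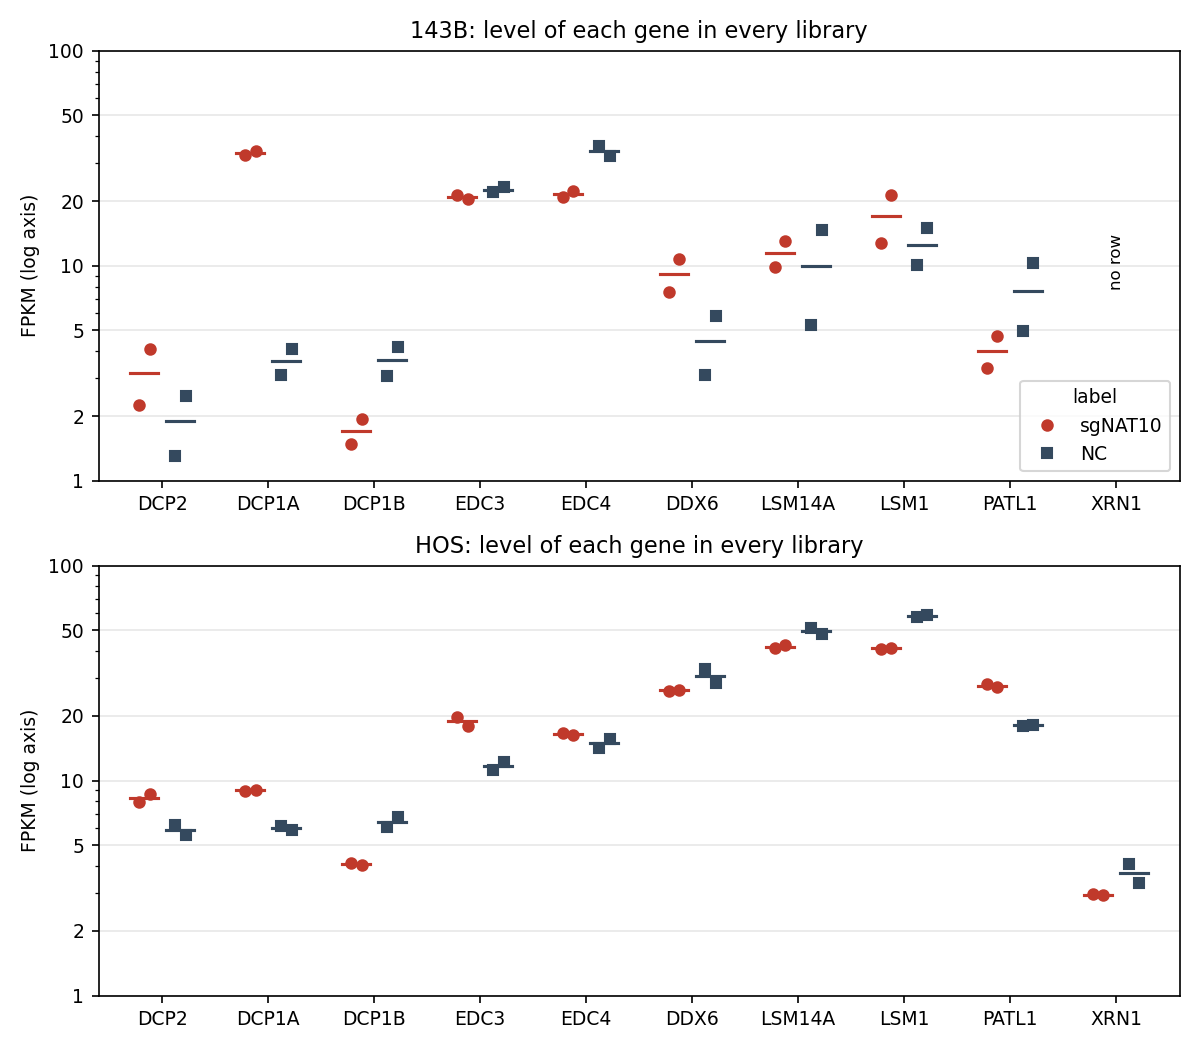
FPKM of each decapping and decay factor in every library, on a log axis, for 143B and HOS. Red circles are sgNAT10 libraries and dark squares are NC libraries, each with n = 2, and bars are means. DCP1A in 143B stands near 33.5 FPKM in sgNAT10 and 3.59 FPKM in NC, and XRN1 has no value in 143B.

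DCP1B, the paralog of DCP1A, was lower in sgNAT10 libraries, and the fall passed the threshold in HOS. It had 4.14 and 4.05 FPKM in the HOS sgNAT10 libraries, against 6.11 and 6.80 FPKM in HOS NC, and fell by 0.55 on the log2 scale (SE 0.11). In 143B it had 1.49 and 1.93 FPKM in sgNAT10, against 3.06 and 4.20 FPKM in NC, a log2 change of -0.77 (SE 0.31) that did not pass the threshold. The sgNAT10 libraries lay below the NC libraries in both lines. The call in HOS was lost with a shared spread and after correction for length and GC content, at -0.17, and the 143B change passed under 5 of 16 alternatives, among them length and GC correction, at -1.09, and the fit without NC replicate 1, at -0.94.

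As a share of DCP1A plus DCP1B together, DCP1A made up 95.7% and 94.7% in 143B sgNAT10, against 50.3% and 49.3% in 143B NC. In HOS it made up 68.4% and 69.2% in sgNAT10, against 50.3% and 46.4% in NC. The NC libraries of both lines thus held the paralogs at nearly equal FPKM, and the sgNAT10 libraries were weighted towards DCP1A. This share is a ratio within a library and is not altered by multiplying a library by a factor. Correction for length and GC content acts on each gene and can alter it. With that correction the log2 changes in HOS were 0.25 for DCP1A and -0.17, not called, for DCP1B. In 143B they were 2.88 for DCP1A and -1.09 for DCP1B.

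DCP2, the catalytic subunit, rose in HOS. It had 7.93 and 8.65 FPKM in HOS sgNAT10, against 6.19 and 5.59 FPKM in HOS NC, a log2 change of 0.43 (SE 0.11). In 143B it had 2.25 and 4.09 FPKM in sgNAT10, against 1.31 and 2.47 FPKM in NC, a log2 change of 0.52 (SE 0.35) that did not pass the threshold, with overlapping groups. It was 0.85 without sgNAT10 replicate 1, 0.82 without NC replicate 2, 0.23 without NC replicate 1 and 0.20 without sgNAT10 replicate 2, and it passed under 3 of 16 alternatives. The HOS call was lost without sgNAT10 replicate 2, at 0.38, with a shared spread, and under median-ratio scaling (0.23) and quantile normalization (0.14). Per DCP2 transcript, DCP1A stood at 14.6 and 8.36 in 143B sgNAT10, against 2.37 and 1.65 in 143B NC. In HOS the ratio was 1.13 and 1.05 in sgNAT10, against 0.998 and 1.05 in NC, so that both transcripts stood near equal FPKM there and the groups overlapped.

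**Figure D2:**
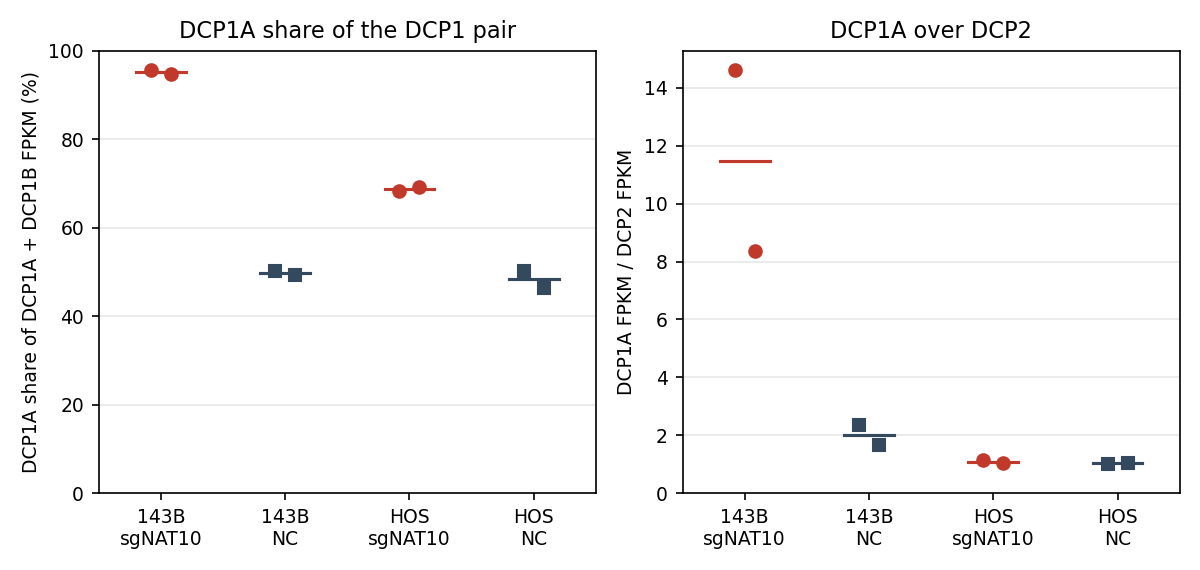
Left, DCP1A as a percentage of DCP1A plus DCP1B FPKM; right, the ratio of DCP1A to DCP2 FPKM, in each library of the 4 groups. Red circles are sgNAT10 libraries and dark squares NC libraries, with n = 2 per group. The 143B sgNAT10 libraries, at 94.7% and 95.7%, lie above all others.

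Of the enhancers, EDC3 rose in HOS, and neither was called in 143B on the FPKM as deposited. EDC3, which binds DCP2 and DDX6, had 19.9 and 18.0 FPKM in HOS sgNAT10, against 11.2 and 12.3 FPKM in HOS NC (log2 change 0.65, SE 0.10). In 143B it had 21.4 and 20.5 FPKM in sgNAT10, against 22.0 and 23.1 FPKM in NC, a log2 change of -0.10 (SE 0.26). The sgNAT10 libraries lay just below NC there, and the sign turned under median-ratio scaling (0.17), quantile normalization (0.27) and length and GC correction, where the change of 0.49 was called higher. That correction also lowered the HOS change, to 0.24, still called. EDC4, a scaffold that joins DCP1 and DCP2, had 21.0 and 22.3 FPKM in 143B sgNAT10, against 36.1 and 32.3 FPKM in 143B NC, a log2 change of -0.64 (SE 0.26) that did not pass the threshold. In HOS it had 16.6 and 16.4 FPKM in sgNAT10, against 14.2 and 15.6 FPKM in NC (log2 change 0.14, SE 0.10, not called). The groups did not overlap in either line, but length and GC correction turned the sign in both, to 0.14, not called, in 143B and to -0.42, called lower, in HOS. In 143B the fall was called under 3 of 17 alternatives: rescaling to a common sum (-0.96), the replicate block and a shared spread. In HOS EDC4 was called higher with a common sum, at 0.34, and without NC replicate 2, at 0.21, and was 0.07, not called, without NC replicate 1.

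DDX6, the helicase of translational repression, had 7.59 and 10.7 FPKM in 143B sgNAT10, against 3.11 and 5.85 FPKM in 143B NC, a log2 change of 0.92 (SE 0.39) that did not pass the threshold. In HOS it had 26.1 and 26.4 FPKM in sgNAT10, against 33.0 and 28.5 FPKM in NC (log2 change -0.22, SE 0.10, not called). It was thus above NC in 143B and below NC in HOS, without overlap in either. The 143B change passed under 7 of 17 alternatives, among them median-ratio scaling (1.17), quantile normalization (1.23), length and GC correction (0.71), the block, a shared spread and the fit without NC replicate 2 (1.29), and it was 0.55 without NC replicate 1. The HOS change passed under 5 of 17, among them median-ratio scaling (-0.44), quantile normalization (-0.33), length and GC correction (-0.30) and the fit without NC replicate 2 (-0.32), and it was -0.11 without NC replicate 1. LSM14A, which binds DDX6, had 9.89 and 13.1 FPKM in 143B sgNAT10, against 5.28 and 14.6 FPKM in 143B NC. Its NC libraries spanned the sgNAT10 libraries, and the log2 change of 0.32 (SE 0.45) turned to -0.33 without NC replicate 1 and passed at 0.98 without NC replicate 2. In HOS it fell, with 41.2 and 42.8 FPKM in sgNAT10, against 51.4 and 48.2 FPKM in NC (log2 change -0.24, SE 0.09). That call was lost without sgNAT10 replicate 1 (-0.21) or 2 (-0.27), and held under 10 of 17 alternatives.

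LSM1, the cytoplasm-specific subunit of the LSM1-7 ring, fell in HOS. It had 41.1 and 41.4 FPKM in HOS sgNAT10, against 57.6 and 59.1 FPKM in HOS NC (log2 change -0.49, SE 0.09). In 143B it had 12.8 and 21.3 FPKM in sgNAT10, against 10.1 and 15.0 FPKM in NC, with overlapping groups and a log2 change of 0.40 (SE 0.35) that did not pass. That change was 0.74 without sgNAT10 replicate 1, 0.66 without NC replicate 2, 0.13 without NC replicate 1 and 0.05 without sgNAT10 replicate 2, and it passed under quantile normalization (0.76) and length and GC correction (0.59). PATL1, which joins the ring to DDX6 and the decapping complex, rose in HOS, with 28.0 and 27.2 FPKM in sgNAT10, against 17.9 and 18.2 FPKM in NC (log2 change 0.58, SE 0.09). In 143B it had 3.35 and 4.69 FPKM in sgNAT10, against 4.95 and 10.3 FPKM in NC, a log2 change of -0.72 (SE 0.41, not called) that passed at -1.18 without NC replicate 1 and was -0.26 without NC replicate 2. It passed under 4 of 16 alternatives, among them the block and length and GC correction, at -0.59. These partners on the mRNA 3-prime end thus moved apart in HOS, where LSM1 was lower and PATL1 higher without overlap. Of all genes in HOS, 53.9% lay above and 29.2% below without overlap. The HOS calls of LSM1 and PATL1 were both lost with a shared spread. XRN1, the exonuclease, was not analysed in 143B here. In HOS it had 2.96 and 2.94 FPKM in sgNAT10, against 4.08 and 3.35 FPKM in NC, a log2 change of -0.25 (SE 0.12) that was not called. It passed under 6 of 15 alternatives, among them the fit without NC replicate 2, at -0.36.

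In 143B 1 of the 9 factors tested was called, DCP1A, against 38.3% of the 11419 genes tested (12.9% higher and 25.4% lower). Without 143B NC replicate 1 or 2 that count was higher, as was the count of all genes called. In HOS 7 of the 10 were called, 4 higher and 3 lower, against 68.5% of 11957 genes (45.5% higher and 23.0% lower). The median change of the factors was 0.32 in 143B, against -0.25 for all genes, and -0.04 in HOS, against 0.19 for all genes. Libraries of sgNAT10 and NC did not overlap for 6 of 9 factors in 143B, 2 above and 4 below, where 66.8% of all genes did not (23.9% above and 42.8% below), and for 10 of 10 in HOS, 5 above and 5 below, where 83.1% did not (53.9% above and 29.2% below). These counts carry no test, since the factors were picked from this contrast. In the fit over both lines DCP1A was higher, with a mean log2 change of 1.71 (SE 0.14), number 9 from the top of 10655 genes, and DCP1B was lower at -0.66 (SE 0.14). Thus 2 of 9 were called, 1 higher and 1 lower, where 30.6% of all genes were (13.1% higher and 17.6% lower).

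Libraries rescaled in other ways shifted these splits. Median-ratio scaling, which brought the median gene to -0.02 in 143B and -0.01 in HOS, called 3 factors higher and 0 lower in 143B, adding DCP2 and DDX6, and 3 higher and 5 lower in HOS, where DCP2 was no longer called and XRN1 and DDX6 were lower. The same scaling split all genes into 2361 higher and 2541 lower in 143B, against 1473 and 2897 as deposited, and into 3762 higher and 4038 lower in HOS, against 5444 and 2751.

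**Figure D3:**
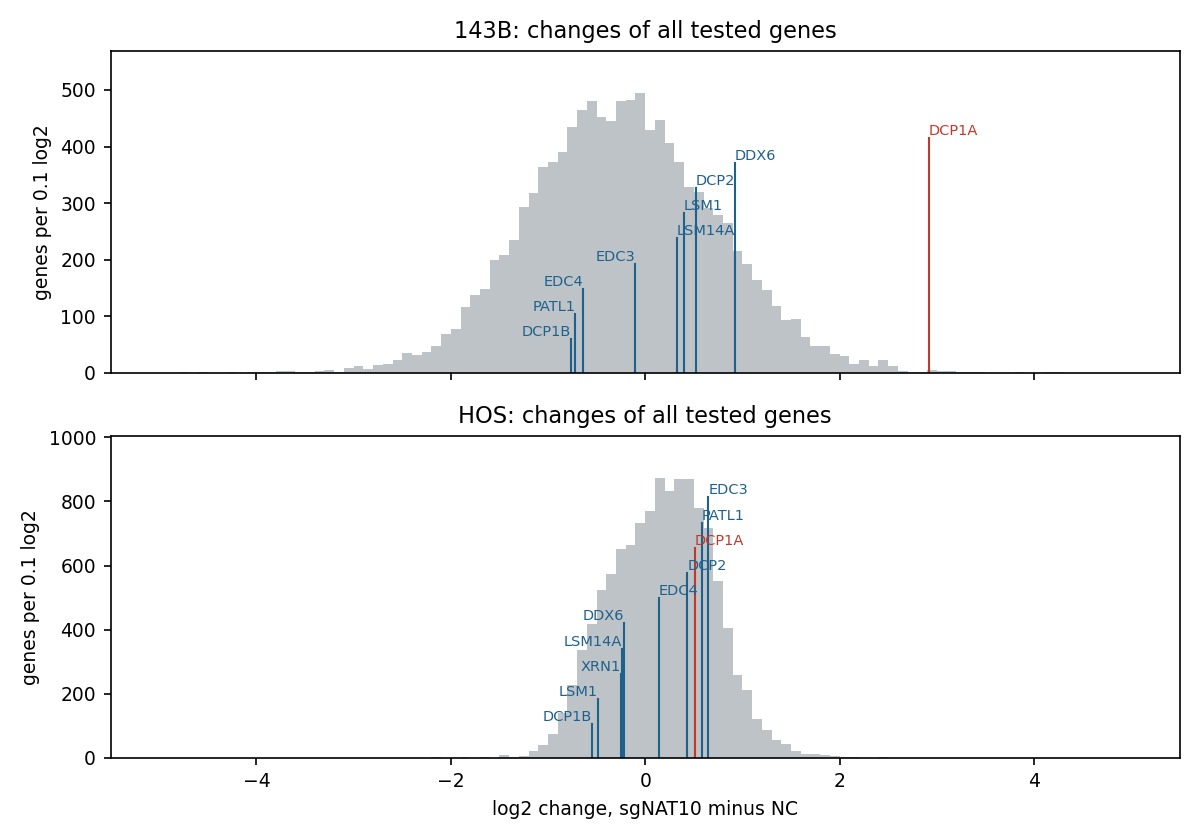
Number of genes per 0.1 of log2 change (sgNAT10 minus NC) over all genes tested, 11419 in 143B and 11957 in HOS, with vertical lines at the decapping and decay factors and DCP1A in red; line heights are for legibility only. DCP1A stands in the far upper tail in 143B, at 2.92, and inside the bulk of genes in HOS, at 0.51.

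The factors were also ordered by their mean FPKM in each group. In 143B sgNAT10 DCP1A had the highest level of the 9, at 33.5, ahead of EDC4 at 21.6 without overlap of the libraries. Among the 143B NC levels it was next to last, at 3.59, overlapping DCP1B at 3.63, with EDC4 highest at 34.2. HOS sgNAT10 was led by LSM14A at 42.0 and LSM1 at 41.2, which overlapped, and DCP1A stood at 9.01. HOS NC was led by LSM1 at 58.4 and LSM14A at 49.8, with DCP1A at 6.03 overlapping both DCP1B and DCP2. Over the 9 factors listed in both lines, summed FPKM was 113 and 133 in 143B sgNAT10, against 89.0 and 112 in 143B NC. DCP1A supplied 29.2% and 25.8% of that sum in 143B sgNAT10, against 3.48% and 3.65% in 143B NC. In HOS the sum was 194 and 194 in sgNAT10, against 204 and 200.2 in NC, and DCP1A supplied 4.61% and 4.68% in sgNAT10, against 3.03% and 2.94% in NC. Ordered across both lines, whose tables are separate, DCP1A was highest in 143B sgNAT10, then HOS sgNAT10, HOS NC and 143B NC, with no overlap between neighbouring groups.

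The difference between the lines was not the contrast by which the factors were chosen. It was tested as the sgNAT10 minus NC change in 143B minus that in HOS. It is built from the same libraries as that choice, and the DCP1A spread was unequal (SE 0.30 in 143B, 0.11 in HOS). The interval and p-value for DCP1A are therefore not free of the choice. For DCP1A the difference was 2.41 (SE 0.28, 95% interval 1.78 to 3.04, limma adjusted p = 0.00024), so the rise in 143B exceeded that in HOS. DDX6 also differed upwards, by 1.14 (interval 0.26 to 2.01, limma adjusted p = 0.036). The difference was downwards for PATL1, by -1.30 (interval -2.25 to -0.36, limma adjusted p = 0.029), for EDC4, by -0.78 (-1.34 to -0.22, adjusted p = 0.028), and for EDC3, by -0.75 (-1.32 to -0.18, adjusted p = 0.033). Thus 5 of 9 factors differed between lines, 2 upwards and 3 downwards, against 49.1% of the 10655 genes compared (12.9% upwards and 36.2% downwards), a share near that of all genes. The median gene differed by -0.44, and relative to it DCP1A differed by 2.85, DDX6 by 1.58, PATL1 by -0.86, EDC4 by -0.33 and EDC3 by -0.31. EDC3 and EDC4 did not pass the threshold under median-ratio scaling and quantile normalization, and their sign turned under length and GC correction, to 0.25 for EDC3 and 0.57 for EDC4. DDX6 missed it with libraries rescaled to a common sum. EDC4 and PATL1 missed it without 143B sgNAT10 replicate 1, and EDC3 and DDX6 without 143B sgNAT10 replicate 2. Without any 1 of the HOS libraries DCP1A alone of the factors stayed past the threshold, and fewer of all genes passed it too. The other 4 factors missed the threshold, with wide intervals: LSM1 at 0.89 (0.05 to 1.73, adjusted p = 0.076), LSM14A at 0.56 (-0.60 to 1.72, adjusted p = 0.39), DCP1B at -0.22 (-0.84 to 0.40, adjusted p = 0.54) and DCP2 at 0.09 (-0.77 to 0.95, adjusted p = 0.86), all by limma. Of these, LSM1 passed under 8 of 21 alternatives, among them median-ratio scaling (1.38), quantile normalization (1.26), length and GC correction (1.14) and the block. DCP1B passed under length and GC correction, at -0.92, and LSM14A under median-ratio scaling, at 1.05, and without 143B NC replicate 2, at 1.22.

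**Figure D4:**
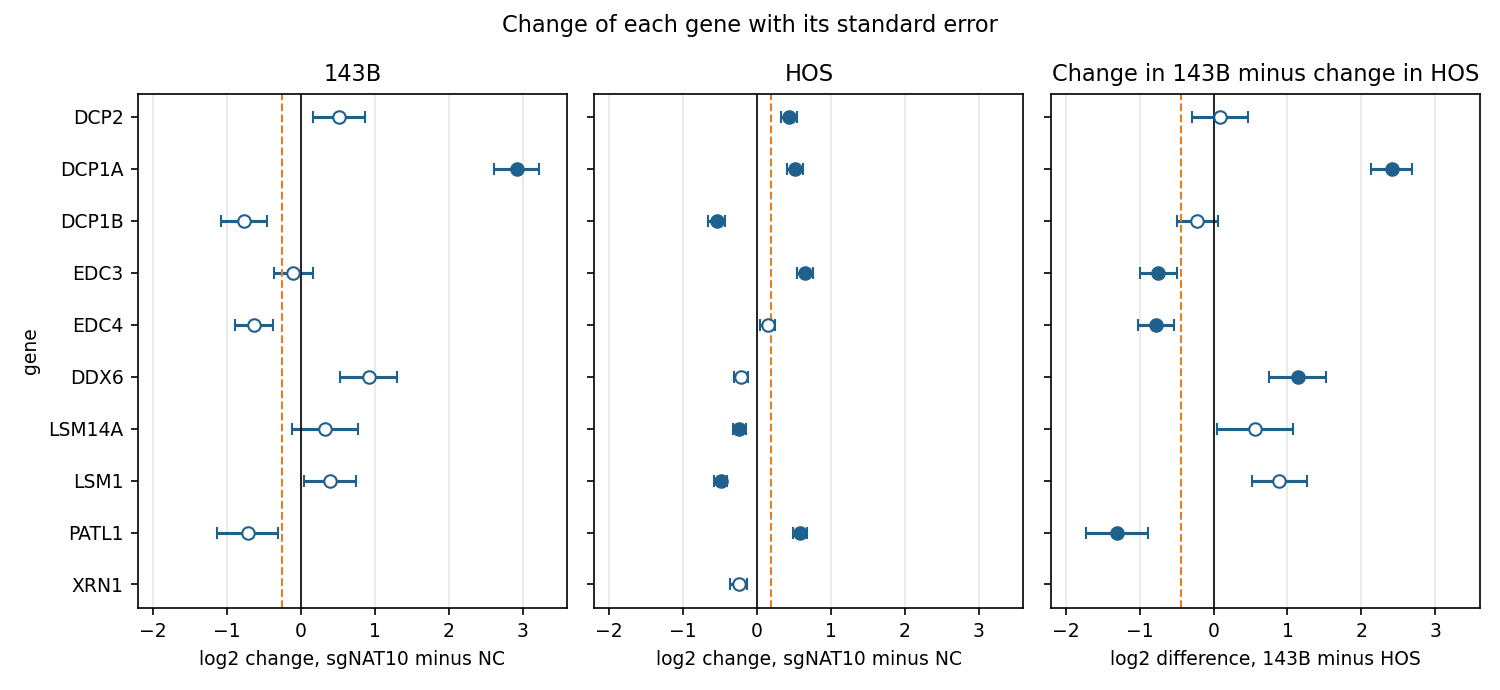
Log2(FPKM + 1) change, sgNAT10 minus NC, of each factor in 143B and in HOS, and 143B minus HOS, the difference of these changes, each with its SE. Filled points have a limma adjusted p under 0.05, and the orange dashed line is the median of all genes. DCP1A stands at 2.92 in 143B, 0.51 in HOS and 2.41 for the difference.

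The profile most like that of DCP1A, over the 8 libraries and among 10520 genes, was that of UBE3A, a ubiquitin ligase, at a distance of 0.31 (Euclidean distance of log2 values after subtracting each line's NC mean). HTD2, an enzyme of mitochondrial fatty acid synthesis, followed at 0.43 (it shares a transcript with RPP14, so its reads are uncertain), then PRR11 at 0.50 and the leptin receptor LEPR at 0.55. UBE3A averaged 81.5 ± 11.04 FPKM in 143B sgNAT10 and 10.6 ± 3.56 FPKM in 143B NC (SD, n = 2 each). In HOS it averaged 34.3 ± 0.438 FPKM in sgNAT10 and 25.0 ± 1.35 FPKM in NC. In 143B HTD2, PRR11 and LEPR rose by 2.95, 2.80 and 2.92 on the log2 scale. In HOS HTD2 rose by 0.44 (SE 0.12) and PRR11 by 0.79 (SE 0.11). LEPR changed by 0.13 (SE 0.10) in HOS, not called.

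DCP1A lies on the minus strand of chr3 at 53283428 to 53347610 (GRCh38, GENCODE). Of 7 neighbours within 500 kb that were tested in both lines, which were looked up after their values were seen, 0 were called higher and 2 lower in 143B, with log2 changes of -1.70 to 0.76. The lower ones were PRKCD, a protein kinase C, at -1.70, and STIMATE, a regulator of store-operated calcium entry, at -1.08. In HOS 6 of the 7 were called higher and 0 lower, with changes of 0.20 to 0.85, which includes the DCP1A change of 0.51. Of these 6, CHDH averaged 1.31 FPKM in HOS sgNAT10 and 0.635 in HOS NC. It passed the filter of 1 FPKM there only through sgNAT10, so it could be counted only as higher. Of all genes, 12.9% were higher and 25.4% lower in 143B, and 45.5% higher and 23.0% lower in HOS. DCP1A overlaps the calcium channel gene CACNA1D, and DCP1B, at chr12 1946054 to 2004535, overlaps CACNA1C, each on the opposite strand; neither channel gene was analysed here. EDC3 overlaps CLK3 and LSM1 overlaps BAG4, also on opposite strands. CLK3 fell by 0.90 in 143B and rose by 0.26 in HOS, and BAG4 changed by 0.67 in 143B, not called, and rose by 0.33 in HOS. No source used here says whether the counting used strand, so reads from the overlapping parts of such pairs cannot be told apart. DDX6 and LSM1 have processed pseudogenes, and how the counting treated reads shared with them is not stated.

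The wider decay machinery was read from 7 lists outside the 10 factors. In 143B 12 of 63 tested genes were called higher and 10 lower, and in HOS 30 of 66 were called higher and 19 lower, with medians of -0.09 in 143B and 0.13 in HOS. The count in 143B of 22 genes was 40 with length and GC correction and the replicate block, where 6965 of 11224 genes were called. It was 42 with the block alone, 21 higher and 21 lower. Of all 11419 genes 7652 were then called, 2737 higher and 4915 lower, against 4370 as deposited. Without either sgNAT10 replicate the 143B count was lower, as was that of all genes. The count in HOS of 49 was 14 with a shared spread, where 1864 of 10655 genes were called, against 8195 of 11957 as deposited. Against the counts as deposited, here and for each list below, stand 12.9% higher and 25.4% lower of all genes in 143B. In HOS the shares of all genes are 45.5% higher and 23.0% lower. The lists share their libraries with the 10 factors, so these counts are descriptions.

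The microRNA silencing list had no gene called lower in either line. It holds the Argonautes and the TNRC6 scaffolds, which recruit deadenylases and DDX6 to targets. In 143B 3 of 6 were called higher and 0 lower (median 0.55), and in HOS 6 of 7 higher and 0 lower (median 0.60). The genes called in 143B were TNRC6A, TNRC6B and TNRC6C. The Argonautes tested there were not called: AGO1 at -0.24, AGO2 at -0.13 and AGO3 at 0.27. In HOS AGO1, AGO2 and AGO4 were called higher beside the TNRC6 genes, and AGO3 was not called, at 0.26. Of all genes, 12.9% were called higher and 25.4% lower in 143B, and 45.5% higher and 23.0% lower in HOS. None of the list was called lower under the 3 other scalings or under length and GC correction, but that correction left 3 of 7 called higher in HOS (median 0.20), and a common sum left 2 of 6 in 143B. TNRC6A averaged 21.3 ± 3.25 FPKM in 143B sgNAT10 and 2.93 ± 1.24 FPKM in 143B NC (SD, n = 2 each), a log2 change of 2.53 (SE 0.36). In HOS it rose by 0.79 (SE 0.11). TNRC6C, a paralog at low level, was higher by 0.88 (SE 0.19) in 143B and by 0.60 (SE 0.11) in HOS. It averaged 1.505 FPKM in 143B sgNAT10 and 0.365 in 143B NC, and 1.945 in HOS sgNAT10 and 0.94 in HOS NC. In both lines it thus passed the filter of 1 FPKM only through sgNAT10 libraries. It could therefore be counted only as higher, and it is among the genes counted so above.

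The ring partners of LSM1 were called in both directions in each line. In 143B 2 of 6 were called higher and 1 lower, and in HOS 2 higher and 3 lower. LSM3 averaged 263 ± 79.5 FPKM in 143B sgNAT10 and 71.1 ± 7.99 FPKM in 143B NC (log2 change 1.84, SE 0.28), and in HOS it fell, to 144 ± 6.43 FPKM in sgNAT10, against 251 ± 10.6 FPKM in NC (log2 change -0.79, SE 0.08). LSM7 rose by 1.10 (SE 0.29) in 143B and changed by -0.09 (SE 0.09) in HOS, not called. Of the 4 decapping cofactors tested, 1 was higher and 0 lower in 143B, and 3 were higher and 1 lower in HOS. PNRC2, which binds DCP1A, rose by 1.31 (SE 0.38) in 143B and fell by 0.38 (SE 0.09) in HOS. LSM14B, the paralog of LSM14A, changed by 0.04 (SE 0.27) in 143B, not called, and rose by 0.81 (SE 0.10) in HOS.

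Among the other decapping and 5-prime decay enzymes, 0 of 5 were higher and 2 lower in 143B, and 1 was higher and 1 lower in HOS. NUDT3, a further decapping enzyme, averaged 2.48 ± 1.13 FPKM in 143B sgNAT10 and 15.0 ± 1.23 FPKM in 143B NC (log2 change -2.24, SE 0.37). In HOS it changed by 0.07 (SE 0.10), not called. XRN2, the nuclear relative of XRN1, changed by -0.83 (SE 0.37) in 143B, not called, and fell by 0.42 (SE 0.09) in HOS.

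Deadenylation, the step before decapping, had 3 of 16 higher and 4 lower in 143B, and 10 of 18 higher and 4 lower in HOS. CNOT1, the scaffold of the CCR4-NOT deadenylase, fell by 1.35 (SE 0.44) in 143B and changed by -0.08 (SE 0.10) in HOS, not called. The deadenylase PARN changed by -0.78 (SE 0.42) in 143B, not called, and fell by 0.56 (SE 0.10) in HOS. The exosome and SKI complex, which degrade from the 3-prime end, had 2 of 16 higher and 1 lower in 143B, and 2 of 16 higher and 8 lower in HOS. The SKI subunit WDR61 averaged 2.31 ± 0.339 FPKM in 143B sgNAT10 and 11.4 ± 2.94 FPKM in 143B NC (log2 change -1.89, SE 0.35), and fell by 0.38 (SE 0.09) in HOS. The SKI subunit TTC37 fell by 1.04 (SE 0.11) in HOS and changed by -0.71 (SE 0.39) in 143B, not called. Nonsense-mediated decay had 1 of 10 higher and 2 lower in 143B, and 6 higher and 2 lower in HOS. UPF3A rose by 1.40 (SE 0.29) and SMG8, a regulator of the kinase SMG1, fell by 1.60 (SE 0.37) in 143B, and neither was called in HOS, at -0.09 and -0.05.

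Scaling moved these splits, and those of all genes as well. With a common sum all genes called split into 896 higher and 3736 lower in 143B, and 7075 higher and 1703 lower in HOS. With median-ratio scaling they split into 2361 higher and 2541 lower in 143B, and 3762 higher and 4038 lower in HOS. With libraries rescaled to a common sum, in 143B the deadenylation list had 0 higher and 4 lower and nonsense-mediated decay 1 higher and 5 lower. In HOS the exosome and SKI list had 5 higher and 6 lower under that scaling. Under median-ratio scaling the exosome and SKI list had 5 higher and 1 lower in 143B, and the ring partners 0 higher and 4 lower in HOS.

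**Figure D5:**
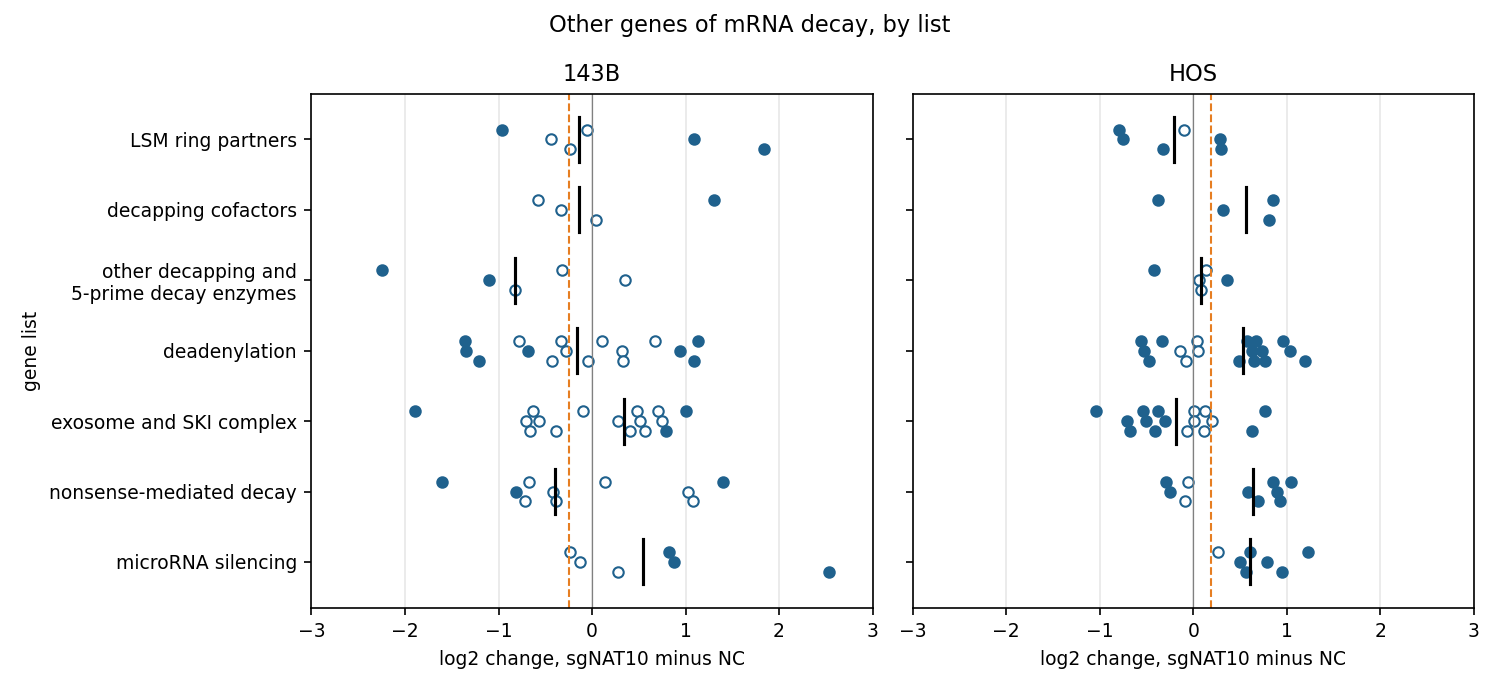
Log2(FPKM + 1) change, sgNAT10 minus NC, of every tested gene of the 7 decay lists, in 143B and HOS. Filled points have a limma adjusted p under 0.05, black bars are list medians and the orange dashed line is the median of all genes. The microRNA silencing list has medians of 0.55 in 143B and 0.60 in HOS, and no filled point below 0.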

How the data were processed

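Polyadenylated RNA of 8 libraries was sequenced. The authors deposited FPKM values in 1 table per line. Per the submitters' processing notes the tools include Bowtie2, RSEM and DESeq2 with the build GRCh38, without roles, and no annotation is named. Listed genes exceeded 0.5 FPKM in at least 2 libraries, and depth is unknown because the tables hold no counts and low values showed no steps of whole reads, so no counting interval is given.

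Values were transformed to log2(FPKM + 1), which understates changes of low genes. A filter of 1 FPKM in 2 or more libraries was applied per line, and limma 3.58.1 was used (R 4.3.3, intensity trend, two-sided, Benjamini-Hochberg over all genes). Each line was fitted alone. A joint fit of 4 group means, over genes passing in both tables, gave the mean over lines and the difference between them. With 2 against 2 libraries an exact permutation test cannot go below p = 0.33. The scripts were tested on simulated data.

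The 10 factors and 7 lists were chosen with earlier results of these data known. From each list the text names the 2 genes with the largest change over both lines, and it adds the 4 genes most like DCP1A, NAT10, and neighbouring and overlapping genes. Promoter sequences are from RefSeq, positions from GENCODE. Alternatives were pseudocounts of 0.1 and 5, no filter, a 5 FPKM filter, 3 scalings, no trend, robust moderation, a replicate block, a shared spread, a length and GC correction (spline with 4 degrees of freedom, alone and with the block), and each library left out.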

Additional observations from a re-analysis of the deposited data

Results flagged for a closer look

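Several genes changed differently in the lines, by the limma test of the difference (143B minus HOS, log2 scale, adjusted over all genes). Of the 10655 genes compared, 49.1% passed this test, 12.9% upwards and 36.2% downwards, and the median gene differed by -0.44. Only the factors, NAT10 and the 2 genes named from each list were looked at here. No group has enough libraries for a test of single outlying samples. Among the decapping factors, DCP1A differed by 2.41 (adjusted p = 0.00024), DDX6 by 1.14 (adjusted p = 0.036), EDC3 by -0.75 (adjusted p = 0.033), EDC4 by -0.78 (adjusted p = 0.028) and PATL1 by -1.30 (adjusted p = 0.029). NAT10 differed by -1.41 (adjusted p = 0.0036), being lower in sgNAT10 in 143B and higher in HOS.

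Among the other decay genes, higher differences were found for LSM3 at 2.63 (adjusted p = 0.00024), LSM7 at 1.19 (0.011), PNRC2 at 1.69 (0.013), UPF3A at 1.49 (0.0027) and TNRC6A at 1.74 (0.0034), the values in parentheses being limma adjusted p. Lower differences were found for NUDT3 at -2.31 (0.00075), WDR61 at -1.52 (0.0033), SMG8 at -1.55 (0.015) and LSM14B at -0.77 (0.045). These decay genes were named for their large change over both lines in the same libraries. Their p-values are therefore not free of that choice. The alternatives were run for their mean over lines only, so how these differences depend on processing was not tested.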

How the results depend on the processing

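Depth is unknown and each group has 2 libraries, which limits every value. DCP1A was chosen for its rise over both lines, so its range there (1.26 to 1.89 over 21 alternatives), in 143B (2.17 to 3.21) and in HOS is a description. In HOS it was not called under quantile normalization (0.22) and a shared spread (0.51). Its difference between lines, built from the same libraries as the choice, passed in all 21 alternatives (1.82 to 2.99). For that difference and for the mean over lines, the shared spread is the joint fit itself, so that alternative could not change them. The cause of the changes below was not tested.

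The number of factors called in 143B, 1 in the report, was 2 with a common sum, 3 with median-ratio scaling, 4 with quantile normalization or a shared spread, 6 with length and GC correction, with or without the block, and 1 to 3 without single libraries. In HOS, 7 became 1 with a shared spread, where 1864 of all genes were called, against 8195. Without single HOS libraries the count moved both ways. It was higher without NC replicate 2 and lower without either sgNAT10 replicate, and the count of all genes moved in the same direction each time. For the difference, the 5 became fewer or more without some single libraries, and DCP1A alone remained without any 1 HOS library. Calls over all genes moved too. In 143B they were 4370 in the report, 4632 with a common sum, 4902 with median-ratio scaling and 5643 with quantile normalization. They were 5553 with a shared spread and 6056 with length and GC correction there. For the difference, fewer of all genes were called without any 1 HOS library.

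Signs turned in 143B for EDC3 (0.17 median-ratio, 0.27 quantile, 0.49 length and GC, called higher), EDC4 (0.14 length and GC) and LSM14A (-0.33 to 0.98 without single libraries). In HOS they turned for EDC4 (-0.0759 median-ratio, -0.031 quantile, -0.42 length and GC, called lower) and NAT10 (-0.047 length and GC). For the difference they turned for DCP1B (0.17 median-ratio, 0.30 quantile), DCP2 (-0.046 pseudocount of 5, -0.33 common sum, -0.12 length and GC, -0.23 to 0.41 without single libraries, negative without 143B NC replicate 1 or sgNAT10 replicate 2), EDC3 (0.25) and EDC4 (0.57, past the threshold) with length and GC correction, and LSM14A (-0.094 to 1.22 without single libraries, negative without 143B NC replicate 1). Turned signs under length and GC correction were the same with the replicate block.

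The libraries share only a replicate number. Same-numbered deviations correlated at 0.59 in 143B and -0.099 in HOS. With the replicate block 6 factors were called in 143B, and of all genes 7652, against 4370. All genes called in 143B were 6965 with length and GC correction and the block, and 1995 to 5067 without single libraries, and in HOS 8195 fell to 1864 with a shared spread. A filter of 5 FPKM left no value for DCP1B, DCP2 and PATL1 in 143B or XRN1 in HOS, and a shared spread none for XRN1.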
